A study of Mus musculus with 11 samples.

Results

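The transcripts of 37 astrocyte genes were followed in the anterior cingulate cortex (ACC) of mice that had or had not been trained to press a lever for food. The genes were picked by symbol as astrocyte markers, transporters and channels, and secreted factors that act on synapses. All 37 of 37 were among the 14974 genes of the deposited expression table, and all 37 passed the filter on low values. The question was whether the astrocyte transcripts of the ACC moved with training.

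All mice were wild-type C57BL/6 adults (C57BL/6J in the study's methods) of both sexes, and every library came from the ACC of 1 mouse. The Trained group (6 libraries, 3 female and 3 male) had learned to press a lever for food pellets under a rising press requirement. The Untrained group (5 libraries, 3 female and 2 male) was food-restricted as well and spent the same time in the chamber, but ate its food there without pressing. The ACC was dissected within 1 h of the last session. Each library is named here by its group and its label's number, and these numbers run from 1 to 6 and from 10 to 17. Libraries 1 to 6 were all female, and libraries 10 to 17 held 5 males and 1 female, so number range and sex can hardly be separated. The labels do not call the ranges batches.

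Astrocytes clear glutamate and potassium from around synapses, move water at their endfeet on blood vessels, and are joined to each other by gap junctions. They also secrete proteins that start or restrain the formation of synapses, and they engulf synapses through phagocytic receptors. In bulk tissue fewer cells of a type and less RNA per cell cannot be told apart, so the values below are levels per tissue sample and not per astrocyte.

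The values are FPKM, fragments scaled to the length of the gene and to the fragments of the library, and a depth of 14.26 to 27.16 M fragments per library was estimated from their steps. Neuron markers were abundant, with a sum of 10 markers of 3227 to 4017 FPKM per library. Oligodendrocyte markers differed with library number and sex. For training, none of the 10 passed an unadjusted limma p under 0.05. The trained mean was higher for 9 of the 10, against 49.1% of all genes, with a median log2 difference of 0.13. All 10 were lower in libraries 10 to 17 (adjusted p below 0.05 in limma), with a median log2 difference of -0.89. Their mean log2 level, centred for each gene, was 0.0996 to 1.23 in libraries 1 to 6 and -0.689 to -0.438 in the males. Untrained 17, the female numbered in 10 to 17, was at 0.0828, above all males. Untrained 10 stood apart from the other libraries. Its 3 choroid plexus markers in the table summed to 168 FPKM, against at most 10.8 in any other library, its neuron markers to 4017 FPKM against 3227 to 3481, and it was the highest or the lowest of the 11 libraries for 41.6% of all genes tested.

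The 37 genes covered a wide span of levels. Their mean ran from 2.91 FPKM for Chrdl1 to 799 FPKM for Apoe, with a median of 34.4 FPKM against 7.78 FPKM over all genes tested. Together they made up 1.44% of all FPKM in Trained 14, the lowest share, and 1.66% in Trained 1, the highest. Apoe, which carries lipids between brain cells, led with 799 FPKM. It was followed by the protease inhibitor Cst3 (770 FPKM), the secreted matrix protein Sparcl1 (658 FPKM), the glutamine synthetase gene Glul (426 FPKM), the metal-binding protein gene Mt3 (331 FPKM) and the lipoprotein and chaperone gene Clu (328 FPKM). The classical marker Gfap, an intermediate filament protein, averaged 18.2 FPKM, and the endfoot water channel Aqp4 averaged 11.97 FPKM.

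**Figure D1:**
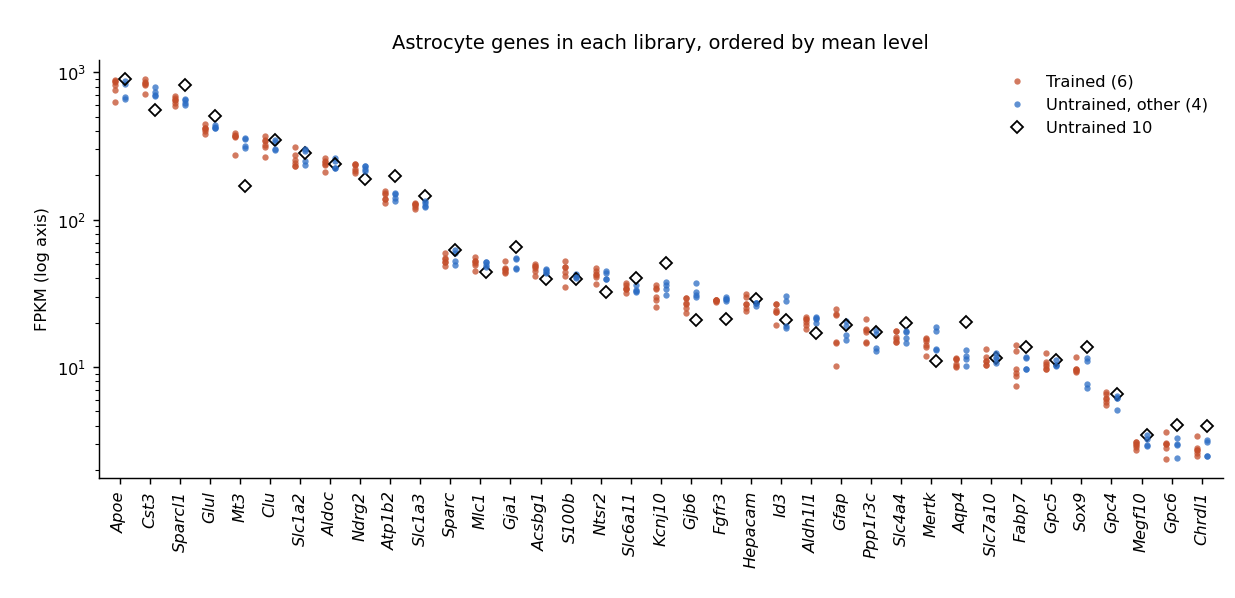
FPKM (log axis) of the 37 astrocyte genes in each of the 11 libraries, ordered by mean level from Apoe (799 FPKM) to Chrdl1 (2.91 FPKM). Orange points are the 6 Trained libraries, blue points 4 Untrained libraries, and open diamonds Untrained 10, which lies outside the other untrained points for Aqp4, Kcnj10, Mt3 and others.

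Trained and untrained mice had closely similar levels of most of these genes. The log2 difference (trained minus untrained, on log2(FPKM + 0.1)) had a median of -0.013 over the 37 genes and of -0.0029 over all 14936 genes tested. It ran from -0.26 for Kcnj10 to 0.29 for Mt3, and both ends rested on Untrained 10, without which they were -0.15 and 0.093. The trained mean was higher for 15 genes and lower for 22, where 50.9% of all genes had lower ones. Of the 37, 26 differed by less than 0.1 in log2, where 58.1% of all genes did.

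Only Cst3 among the 37 was higher in trained mice at an unadjusted limma p under 0.05, in a direction where 4.13% of all genes passed. Gja1 and Kcnj10 were lower at that threshold, 2 of 37 where 4.2% of all genes passed. After Benjamini-Hochberg adjustment over all genes, 0 of 37 passed an adjusted p of 0.05 in limma, as did 0.0% of all genes. The exact permutation test of single genes, run over all 462 ways to form groups of 6 and 5, gave a p under 0.05 for 2 of the 37, Cst3 and Gja1, and for 8.53% of all genes. With the study's cut-offs (p under 0.01 before adjustment, and a change of 1.5-fold or more) 0 of 37 genes were called in limma, against 0.281% of all genes. For 0 of 37 did the trained and untrained libraries fall apart without overlap, against 0.763% of all genes. The shares of called astrocyte genes lay near or below those of all genes.

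The confidence intervals bound how large a change could have gone unseen. For 36 of the 37 genes the 95% interval of the difference lay wholly within 1.5-fold in both directions. The exception was Mt3, whose interval reached 0.65 in log2. The median distance from the estimate to the interval's end was 0.18.

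**Figure D2:**
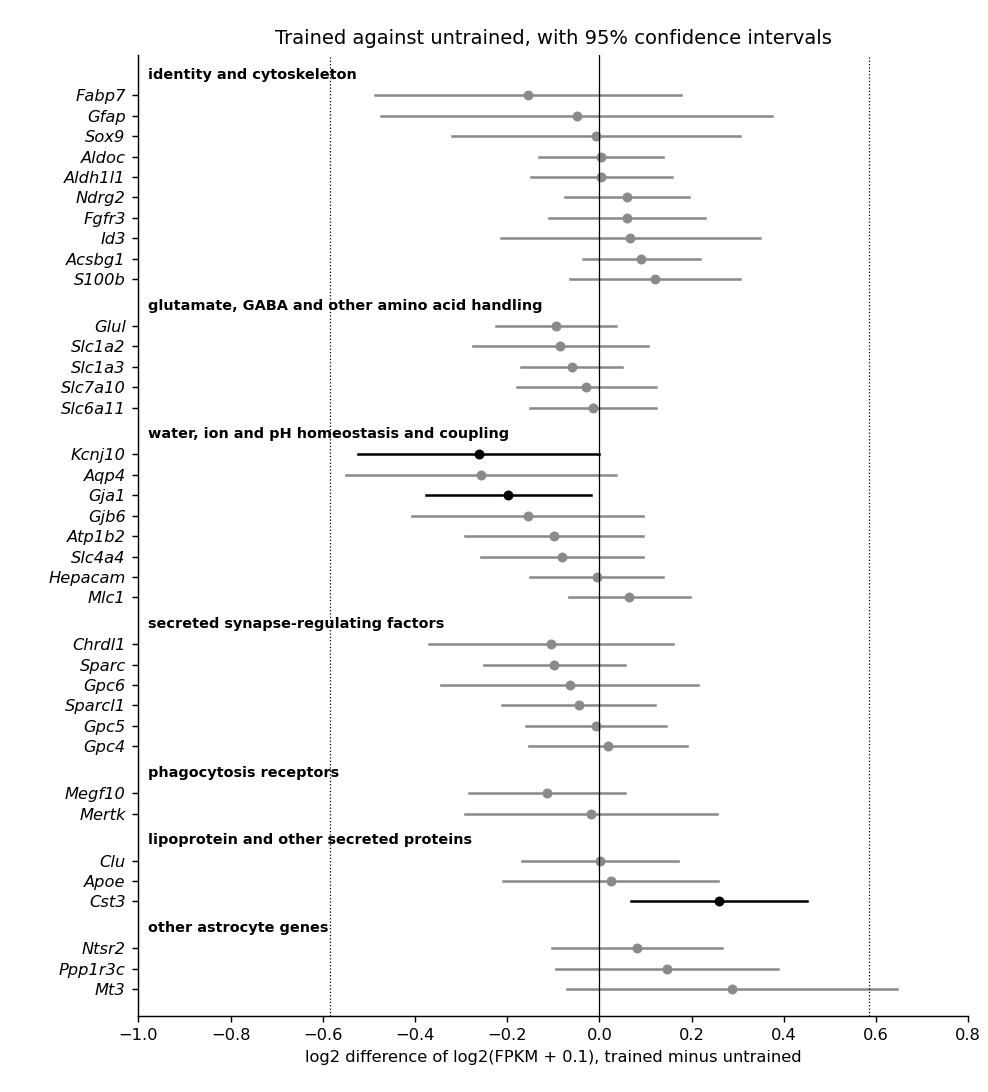
Log2 difference between trained and untrained mice (log2(FPKM + 0.1), trained minus untrained) for each of the 37 genes, grouped by role, with 95% confidence intervals from limma. Black marks the 3 genes with an unadjusted p under 0.05 (Kcnj10, Gja1, Cst3), the dotted lines mark 1.5-fold, and only the interval of Mt3 crosses one of them.

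Cst3 encodes cystatin C, a secreted inhibitor of cysteine proteases that astrocytes and microglia make. Its level was 849.5, 825.8, 860.1, 900.8, 835.6 and 710.6 FPKM in Trained 1, 2, 3, 12, 13 and 14, and 738.3, 798.9, 553.8, 699.4 and 694.2 FPKM in Untrained 5, 6, 10, 16 and 17. Of the trained libraries 5 lay above every untrained one, and Trained 14 lay among the untrained. The means were 830 ± 64.2 FPKM (SD, n = 6) and 697 ± 90.3 FPKM (SD, n = 5). Trained minus untrained was 0.26 ± 0.088 (SE) in log2, with an adjusted p of 0.537 in limma and an exact permutation p of 0.0173 (two-sided, adjusted 0.534). Cst3 kept an unadjusted p under 0.05 in 24 of 24 alternative settings, with differences from 0.14 to 0.33. It stayed at 0.18 without Untrained 10, the lowest library. Of 10 microglia markers 1, Trem2, passed the same threshold, higher in trained mice, where 4.13% of all genes passed. The trained mean was higher for 8 of the 10, against 49.1% of all genes. The summed level of the markers was 159 to 184 FPKM in trained and 158 to 187 FPKM in untrained libraries. The part of these markers in the Cst3 result was not tested.

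Gja1 encodes the main gap junction protein of astrocytes. It was at 44.4, 46.2, 43.5, 45.7, 46.9 and 52.1 FPKM in Trained 1, 2, 3, 12, 13 and 14, and at 47.1, 46.3, 65.6, 54.7 and 54.4 FPKM in Untrained 5, 6, 10, 16 and 17. The groups overlapped in both directions, and the highest value was that of Untrained 10. The means were 46.5 ± 3.02 FPKM (SD, n = 6) and 53.6 ± 7.76 FPKM (SD, n = 5). The log2 difference was -0.20 ± 0.083 (SE), with an adjusted p of 0.578 in limma and an exact permutation p of 0.0455 (adjusted 0.58). Without Untrained 10 it was -0.12 and no longer passed the unadjusted threshold.

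Kcnj10 encodes the inward rectifier channel through which astrocytes take up potassium. It was at 36.2, 34.5, 34.0, 25.5, 29.8 and 28.5 FPKM in Trained 1, 2, 3, 12, 13 and 14, and at 37.8, 36.3, 51.2, 31.0 and 33.7 FPKM in Untrained 5, 6, 10, 16 and 17. The 3 lowest libraries were all trained and from numbers 12 to 14, Untrained 10 was far above the rest, and the groups overlapped. On the log2 scale Kcnj10 differed by -0.26 ± 0.12 (SE), with an adjusted p of 0.597 in limma and an exact permutation p of 0.0887. Without Untrained 10 it was -0.15 and no longer passed the unadjusted threshold. With each library left out in turn, Kcnj10 kept its unadjusted call in 5 of 11 cases and Gja1 in 4 of 11, so both calls depended on single libraries.

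Promoters are shown for Cst3, Gja1 and Kcnj10, called at an unadjusted limma p under 0.05, and for Gfap, described below by sex. They are RefSeq sequence of GRCm38.p6, 250 bases before to 50 bases after the annotated start, 5′ to 3′ on the gene's strand. Capitals mark matches on either strand to the NFI half-site TTGGC, the STAT motif TTCNNNGAA and the AP-1 motif TGANTCA, which do not overlap here.
Gfap, chr11:102897151-102897450, minus strand: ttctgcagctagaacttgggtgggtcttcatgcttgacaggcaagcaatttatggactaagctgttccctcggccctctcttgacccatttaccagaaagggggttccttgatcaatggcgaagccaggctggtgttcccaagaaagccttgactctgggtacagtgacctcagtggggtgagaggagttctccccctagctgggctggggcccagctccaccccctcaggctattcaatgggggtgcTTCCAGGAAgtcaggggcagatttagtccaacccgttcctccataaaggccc
Gja1, chr10:56377050-56377349, plus strand: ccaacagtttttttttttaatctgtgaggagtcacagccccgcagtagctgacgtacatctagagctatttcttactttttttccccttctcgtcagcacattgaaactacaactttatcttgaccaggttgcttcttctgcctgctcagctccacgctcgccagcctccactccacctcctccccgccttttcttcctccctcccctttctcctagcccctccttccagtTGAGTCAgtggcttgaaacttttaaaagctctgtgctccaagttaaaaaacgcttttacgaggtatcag
Kcnj10, chr1:172340960-172341259, plus strand: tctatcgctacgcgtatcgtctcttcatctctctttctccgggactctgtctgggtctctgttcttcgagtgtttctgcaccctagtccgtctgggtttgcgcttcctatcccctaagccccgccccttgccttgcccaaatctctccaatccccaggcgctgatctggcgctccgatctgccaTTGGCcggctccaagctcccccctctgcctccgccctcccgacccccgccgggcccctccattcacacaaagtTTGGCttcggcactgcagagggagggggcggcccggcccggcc
Cst3, chr2:148875463-148875762, minus strand: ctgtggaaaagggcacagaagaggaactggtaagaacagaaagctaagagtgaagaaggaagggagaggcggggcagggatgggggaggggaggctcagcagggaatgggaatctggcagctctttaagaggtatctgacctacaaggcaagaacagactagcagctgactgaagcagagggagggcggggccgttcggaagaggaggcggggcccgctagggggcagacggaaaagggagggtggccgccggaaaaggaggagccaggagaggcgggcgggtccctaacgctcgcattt
Gfap held 1 STAT match, Gja1 held 1 AP-1 match, Kcnj10 held 2 NFI matches and Cst3 held none of the 3 motifs in this window. Of the 37 genes 29 had a promoter in the table, with 36 promoters among them. NFI half-sites were in 18 of the 36 and in 46.7% of all 32851 promoters of the table, STAT matches in 5 (13.9%, against 8.3%) and AP-1 matches in 1 (2.78%, against 7.81%). A match is a run of letters and not a shown binding site.

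Among the 8 genes for water, ions and coupling, Kcnj10 and Gja1 were the 2 that passed the unadjusted threshold and 7 had lower trained means, with a median log2 difference of -0.13. Over all genes 4.2% passed in that direction and 50.9% had lower trained means. Untrained 10 was the highest library for 5 of the 8. Without it the median was -0.060, 6 of the 8 means were lower, and Gjb6 was the one gene of the group that passed. Aqp4 was at 11.37, 11.60, 10.13, 10.53, 10.01 and 11.37 FPKM in Trained 1, 2, 3, 12, 13 and 14, and at 10.22, 11.42, 20.18, 11.81 and 13.04 FPKM in Untrained 5, 6, 10, 16 and 17. Untrained 10 lay far above every trained library, Untrained 16 and 17 lay above them by less, and Untrained 5 and 6 lay inside the trained range. The log2 difference of Aqp4 was -0.26 ± 0.14 (SE), with an adjusted p of 0.616 in limma, and -0.097 without Untrained 10. Gjb6, the second gap junction gene of astrocytes, was at 21.01 FPKM in Untrained 10, against 30.1 to 37.0 FPKM in the other untrained libraries and 23.3 to 29.3 FPKM in the trained ones. Its difference was -0.16 (adjusted p 0.704 in limma) over all libraries, and -0.28 without Untrained 10, where it passed the unadjusted threshold. The remaining 4 did not pass: the sodium pump subunit gene Atp1b2 at -0.10 (-0.0070 without Untrained 10), the bicarbonate cotransporter gene Slc4a4 at -0.08 (-0.022 without it), the adhesion gene Hepacam at -0.01 and its membrane partner Mlc1 at 0.06.

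The secreted factors that act on synapses were of interest because the study concerned training and synapse formation. None of the 6 passed the unadjusted threshold, 1 mean was higher and 5 were lower, where 50.9% of all genes had lower trained means. Without Untrained 10, 2 means were lower and the median went from -0.055 to 0.019. Sparcl1 (hevin), which promotes excitatory synapses, was at 695, 654, 616, 650, 673 and 593 FPKM in Trained 1, 2, 3, 12, 13 and 14, and at 661, 654, 817, 598 and 621 FPKM in Untrained 5, 6, 10, 16 and 17. Untrained 10 alone lay above the trained range. Its log2 difference was -0.04 ± 0.077 (SE), with a 95% interval of -0.21 to 0.12 and an adjusted p of 0.878 in limma.

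Sparc, which counteracts hevin, was at 59.1, 54.1, 55.1, 48.7, 51.3 and 52.0 FPKM in Trained 1, 2, 3, 12, 13 and 14, and at 62.4, 59.6, 62.3, 49.5 and 52.6 FPKM in Untrained 5, 6, 10, 16 and 17. Of the untrained libraries 3 lay above every trained one, and the other 2 lay inside the trained range. Sparc differed by -0.10 ± 0.071 (SE) in log2, with an interval of -0.25 to 0.05 and an adjusted p of 0.694 in limma. It passed the unadjusted threshold at -0.15 without Untrained 16.

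The glypicans Gpc4 and Gpc6 are secreted heparan sulfate proteoglycans that bring AMPA receptors to synapses. Gpc4 was at 5.81, 6.18, 6.03, 6.78, 6.52 and 5.52 FPKM in Trained 1, 2, 3, 12, 13 and 14, and at 6.15, 6.31, 6.61, 5.12 and 6.15 FPKM in Untrained 5, 6, 10, 16 and 17. Gpc6 was at 2.98, 2.83, 2.36, 3.06, 3.02 and 3.61 FPKM in the trained libraries in that order, and at 2.99, 2.39, 4.04, 3.31 and 2.96 FPKM in the untrained. Both overlapped through almost their whole range. Their log2 differences were 0.02 (interval -0.15 to 0.19) and -0.06 (interval -0.34 to 0.21), with adjusted p of 0.964 and 0.899 in limma.

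The related glypican Gpc5 was at 9.75, 10.2, 9.64, 10.8, 10.5 and 12.5 FPKM in Trained 1, 2, 3, 12, 13 and 14, and at 10.3, 10.2, 11.1, 11.1 and 10.2 FPKM in Untrained 5, 6, 10, 16 and 17. Chrdl1, which supports the maturation of synapses, was at 2.74, 2.74, 2.47, 2.62, 2.84 and 3.38 FPKM in the trained libraries in that order, and at 2.50, 2.49, 3.95, 3.08 and 3.22 FPKM in the untrained. The highest Gpc5 value was that of Trained 14 and the highest Chrdl1 value that of Untrained 10. Gpc5 differed by -0.01 (interval -0.16 to 0.14, adjusted p 0.986) and Chrdl1 by -0.10 (interval -0.37 to 0.16, adjusted p 0.811) in limma. Without Untrained 10 the Chrdl1 difference was -0.0082. All 6 intervals lay within 1.5-fold.

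**Figure D3:**
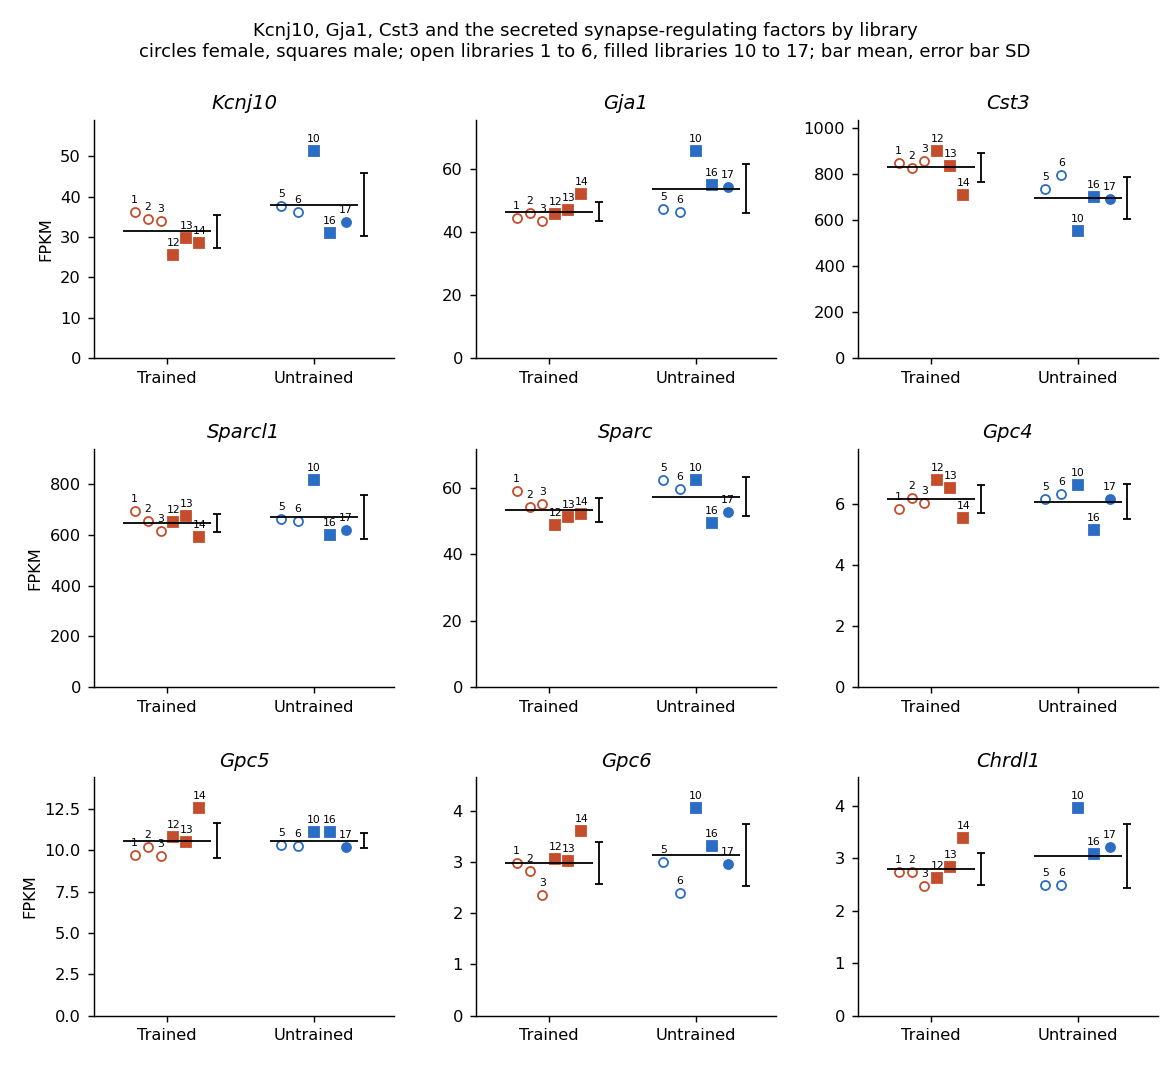
FPKM of Kcnj10, Gja1, Cst3 and the 6 secreted factors in each Trained (orange) and Untrained (blue) library, with library numbers beside the points (circles female, squares male, open libraries 1 to 6, filled libraries 10 to 17), group means as bars and SD as error bars. Untrained 10 is the highest point for Kcnj10, Gja1, Sparcl1, Gpc6 and Chrdl1 and the lowest for Cst3.

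The 5 genes of glutamate, GABA and amino acid handling all had slightly lower trained means, where 50.9% of all genes had lower ones. Their median was -0.060, or -0.029 with 4 of 5 lower without Untrained 10. Of the 5, 0 passed the unadjusted limma threshold or the exact permutation test at 0.05. Glul, which turns glutamate into glutamine, was at 443, 413, 419, 382, 397 and 421 FPKM in Trained 1, 2, 3, 12, 13 and 14, and at 421, 424, 504, 417 and 439 FPKM in Untrained 5, 6, 10, 16 and 17. Its groups overlapped, with Untrained 10 highest. The log2 difference was -0.09 ± 0.06 (SE), with an adjusted p of 0.659 in limma. The glutamate transporter genes Slc1a2 and Slc1a3 differed by -0.08 and -0.06, the GABA transporter gene Slc6a11 by -0.01 and the amino acid exchanger gene Slc7a10 by -0.03.

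Apoe was at 881, 818, 756, 886, 859 and 626 FPKM in Trained 1, 2, 3, 12, 13 and 14, and at 875, 837, 905, 685 and 657 FPKM in Untrained 5, 6, 10, 16 and 17. Clu was at 371, 348, 344, 324, 313 and 268 FPKM in the trained libraries in that order, and at 338, 346, 347, 304 and 299 FPKM in the untrained. Trained 14 was the lowest library for both, and the groups overlapped throughout. The log2 differences were 0.02 for Apoe and 0.00088 for Clu, with adjusted p of 0.965 and 0.998 in limma.

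Mt3, a brain metallothionein that binds zinc and copper, was at 389, 363, 371, 378, 368 and 274 FPKM in Trained 1, 2, 3, 12, 13 and 14, and at 354, 356, 170, 307 and 316 FPKM in Untrained 5, 6, 10, 16 and 17. The trained libraries apart from Trained 14 lay above all the untrained ones, and Untrained 10 lay far below every other library. The log2 difference was 0.29 ± 0.17 (SE), with an adjusted p of 0.638 in limma. With Untrained 10 and Trained 14 both left out it was 0.17 and passed the unadjusted threshold. Without Trained 14 alone it was 0.36 and also passed, and without Untrained 10 alone it was 0.093 and did not pass. Of the phagocytosis receptor genes, Megf10 differed by -0.11 (exact permutation p 0.0823) and Mertk by -0.02. The neurotensin receptor gene Ntsr2 differed by 0.08 and Ppp1r3c, a glycogen-targeting subunit of a phosphatase, by 0.15, and neither passed the threshold.

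The identity group of 10 genes had 0 that passed the unadjusted limma threshold or the exact permutation test at 0.05. Log2 differences were -0.15 for the fatty acid binding protein gene Fabp7, -0.05 for Gfap, -0.01 for the transcription factor gene Sox9, and 0.07 for the transcription regulator gene Id3. They were below 0.01 in size for the glycolytic enzyme gene Aldoc and the folate enzyme gene Aldh1l1, and 0.06 for both Ndrg2 and the growth factor receptor gene Fgfr3. They were 0.09 for the lipid enzyme gene Acsbg1 and 0.12 for the calcium-binding protein gene S100b. S100b passed the unadjusted threshold at 0.19 without Trained 14.

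Gfap was the one gene of the 37 whose trained and untrained libraries parted in opposite directions in the 2 sexes. It was at 24.9, 22.8 and 22.4 FPKM in the trained females (Trained 1, 2 and 3) and at 19.0, 20.4 and 15.3 FPKM in the untrained females (Untrained 5, 6 and 17). In the males it was at 14.9, 14.5 and 10.2 FPKM in Trained 12, 13 and 14 and at 19.4 and 16.6 FPKM in Untrained 10 and 16. All trained females lay above all untrained females, and all trained males lay below both untrained males. This pattern held for 0.576% of all genes by sex, and for 0.67% when the libraries were split by number range in place of sex. The log2 difference was 0.36 in females and -0.46 in males, and it was 0.24 in libraries 1 to 6 and -0.38 in libraries 10 to 17.

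The test of that difference, the interaction of training and sex in limma, gave an unadjusted p under 0.05 for 4 of the 37 genes (10.8%), where 4.1% of all genes passed. They were Gfap (-0.82 ± 0.22, SE), Fabp7 (-0.60 ± 0.23), Kcnj10 (-0.47 ± 0.21) and Atp1b2 (-0.38 ± 0.16), each a male minus female difference of log2 differences. Each had an adjusted p of 0.959, and 0.0% of all genes passed an adjusted p of 0.05. Leaving out each library in turn, Gfap kept its unadjusted call in 11 of 11 cases, from -0.93 to -0.65, whereas Atp1b2 kept it in 7, Fabp7 in 6 and Kcnj10 in 3. In 2 of these 11 fits, without Untrained 10 and without Untrained 16, a single untrained male was left and was assumed to vary like the other groups. Without Untrained 10 Gfap was at -0.71, and Fabp7 (-0.35), Kcnj10 (-0.11) and Atp1b2 (-0.13) lost their calls. The number of genes called ran from 1 without Trained 1 to 16 without Untrained 16, a fit that called 19.8% of all genes and in which Untrained 10 was the sole untrained male. In that fit 5 of the 37 also passed an adjusted p of 0.05, where 2.09% of all genes did: Kcnj10 (0.0156), Atp1b2 (0.0205), Fgfr3 (0.0309), Aqp4 (0.0328) and Mt3 (0.0436). None of the 37 passed it in the 10 other fits.

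**Figure D4:**
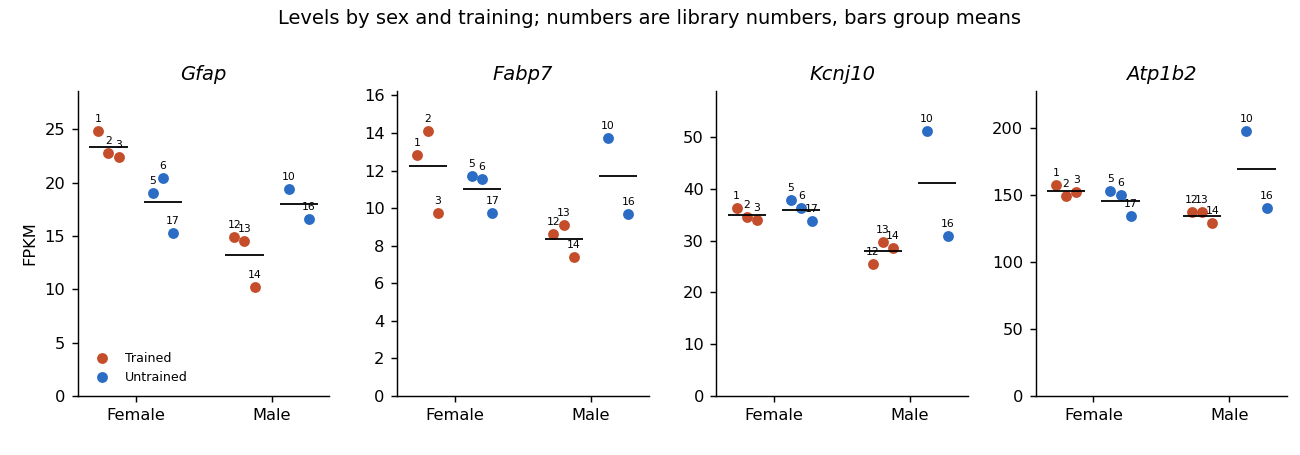
FPKM of Gfap, Fabp7, Kcnj10 and Atp1b2 in trained (orange) and untrained (blue) mice by sex, with library numbers beside the points and group means as bars. Gfap is at 22.4 to 24.9 FPKM in trained females against 15.3 to 20.4 in untrained females, and at 10.2 to 14.9 FPKM in trained males against 16.6 to 19.4 in untrained males.

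Library number separated some of these genes more clearly than training did. With training in the model, 4 of 37 (10.8%) differed between libraries 10 to 17 and libraries 1 to 6 at an adjusted p under 0.05 in limma, close to the 9.51% of all genes. Gfap was lower in libraries 10 to 17 by a log2 difference of -0.56 ± 0.13 (SE, adjusted p 0.0186), and Ppp1r3c was lower by -0.28 (adjusted p 0.048). The transporter genes Slc1a2 (0.26, adjusted p 0.0119) and Slc4a4 (0.21, adjusted p 0.043) were higher. Slc1a2 ran from 231 to 249 FPKM in libraries 1 to 6 and from 253 to 310 FPKM in libraries 10 to 17, without overlap. Leaving out each library in turn, Gfap lost its call only without Trained 1 (adjusted p from 0.00533 to 0.0541 over the 11) and Slc1a2 only without Untrained 6 (0.00614 to 0.0546), while Slc4a4 and Ppp1r3c kept theirs in 2 of 11 cases each. The 10 oligodendrocyte markers were also lower in libraries 10 to 17, with a sum of 332 FPKM in the lowest library and 1246 FPKM in the highest. In these markers Untrained 17 (mean log2 level 0.0828) lay above all males (-0.689 to -0.438). In Gfap it lay at 15.3 FPKM, inside the range of the males (10.2 to 19.4 FPKM). The part of these markers in the Gfap level was not tested. Between the sexes, with training in the model, 0 of 37 passed an adjusted p of 0.05 in limma, against 2.13% of all genes. At an unadjusted p under 0.05, 13 of 37 (35.1%) differed between the sexes, against 22.3% of all genes.

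Untrained 10 held the extreme value of many of these genes. It was the highest or the lowest of all 11 libraries for 24 of the 37 genes (64.9%), against 41.6% of all genes tested. It was the highest for 14, among them Aqp4 (20.18 FPKM, others 10.01 to 13.04), Kcnj10 (51.2 FPKM, others 25.5 to 37.8), Sox9 (13.7 FPKM, others 7.22 to 11.6) and Atp1b2 (198 FPKM, others 129 to 158). It was the lowest for 10, among them Mt3 (170 FPKM, others 274 to 389), Gjb6 (21.01 FPKM, others 23.3 to 37.0), Fgfr3 (21.05 FPKM, others 27.5 to 29.9) and Cst3 (554 FPKM, others 694 to 901). The astrocyte genes did not shift together in this library. The summed exon length had a median of 5820 bases for the 14 genes it had highest and 3259 bases for the 10 it had lowest. Over all genes these medians were 4879 and 3622 bases, and the part of transcript length in the pattern was not tested. Trained 14 was the lowest library for 11 of the 37 genes (29.7%, against 13.5% of all genes), and Trained 1 the highest for 10 (27.0%, against 7.53%).

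**Figure D5:**
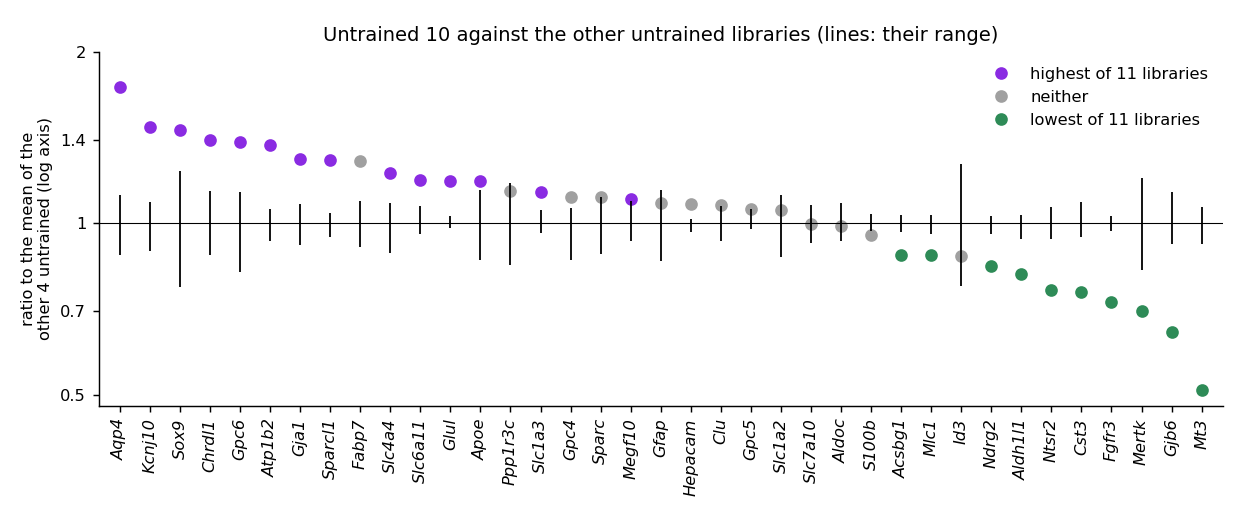
FPKM of each gene in Untrained 10 divided by the mean of the other 4 Untrained libraries (log axis), ordered from Aqp4 to Mt3, with vertical lines for the range of those 4 libraries. The 14 genes for which Untrained 10 was the highest of 11 libraries are purple and the 10 for which it was the lowest are green.

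Across the 11 libraries the astrocyte genes did not vary as a single block. The median Pearson r of log2 values over their 666 pairs was 0.12, or 0.21 without Untrained 10, with 187 pairs above 0.5 and 122 below -0.5. Gfap went with Clu (r = 0.94) and against Slc1a2 (r = -0.77), and Gja1 went against Cst3 (r = -0.96). These values are descriptions over 11 libraries that share their depth and library number, with Untrained 10 among them. No counts over pairs of other genes were set beside them. Outside the 37, the genes most like their mean level were Stx4a (r = 0.94), Srp68, Aen, Prcc and Stip1 (r = 0.92 each), picked as the highest of all genes tested.

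Other astrocyte genes were listed apart from the 37. Of 45 listed, 44 were tested, and 1 was higher (2.27%) and 5 were lower (11.4%) at an unadjusted limma p under 0.05, where 4.13% and 4.2% of all genes passed, with a median log2 difference of -0.0098. Without Untrained 10 the counts were the same, but the lower genes were not all the same ones. The 3 with a p under 0.01 were Grin2c, an NMDA receptor subunit gene, at 0.18, the stress-responsive gene Fam107a at -0.18 and the coagulation factor gene F3 at -0.20. Grin2c was at 9.03 to 10.02 FPKM in trained and 7.73 to 8.98 FPKM in untrained libraries, without overlap. Of 28 genes of reactive astrocytes 23 were tested. At an unadjusted limma p under 0.05, 0 were higher and 4 lower (17.4%, against 4.2% of all genes). Cp, the copper carrier ceruloplasmin, at -0.37 was the one with a p under 0.01. Cp was at 1.51 to 2.09 FPKM in trained and 2.15 to 3.18 FPKM in untrained libraries, without overlap. Grin2c and Cp, which went in opposite directions, each had an exact permutation p of 0.0022, the smallest that 462 splits can give, and an adjusted p of 0.537 in limma, and 0.763% of all genes did not overlap. Without Untrained 10 the count of lower reactive genes was 2 of 23 (8.7%), against 3.84% of all genes. The trained mean was higher for 5 of the 23, with a median log2 difference of -0.074, or -0.077 without Untrained 10. Trained means were higher for 0 of 9 leptomeningeal, 0 of 3 choroid plexus and 1 of 9 mural cell markers, against 49.1% of all genes. Of 10 endothelial markers 4 had higher trained means. The part of these markers in the reactive gene counts was not tested. Of 16 further secreted factors, 1 was higher (6.25%, the growth factor gene Mdk) and 1 lower (Lgi1, a synaptic protein gene) at an unadjusted limma p under 0.05. The trained mean was higher for 3 of the 16, against 49.1% of all genes. Their median log2 difference was -0.079, or -0.057 without Untrained 10. Each of the genes named from these lists had an adjusted p above 0.5 in limma.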

How the data were processed

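RNA-seq libraries of the ACC were made by the authors with a stranded mRNA kit. Per the labels and the study's methods, reads were trimmed (Trimmomatic 0.38), aligned (Bowtie2 2.3.5.1, mm10) and counted per gene (featureCounts, Subread 1.6.3), and 1 untrained male was dropped for low read number. The authors deposited FPKM values for 14974 genes in 11 libraries. The sources used here give neither the annotation nor the strand option of featureCounts, so reads of genes that overlap on opposite strands (Gfap and Gm26668, S100b and Dip2a, Slc1a2 and Gm13872, Slc7a10 and Lrp3, Sparcl1 and Gm26703, among others in GENCODE M21) may be shared. The deposited table of the authors' own edgeR 3.30.3 comparison (fold changes, p-values and false discovery rates) was not used. A spreadsheet had turned 23 gene names into dates.

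The 14936 genes averaging 0.1 FPKM or more were compared on log2(FPKM + 0.1) with limma 3.58.1 (lmFit, eBayes with trend) in R 4.3.3, with Benjamini-Hochberg adjustment over all of them, and with a two-sided exact permutation test over 462 splits. FPKM are not counts, so no count model was run. Sex, its interaction with training and library number range (1 to 6 against 10 to 17) were fitted as terms. The p-values measure the spread between single mice. Differences on this scale understate changes of low genes. Depth (14.26 to 27.16 M fragments) was estimated from the steps of low values, of which 40.7% to 46.8% per library were whole fragments within 0.1, too few for a count test on recovered reads. The fits were tested on simulated data. Promoters came from RefSeq GRCm38.p6 and were searched in Python 3.11.15 with pandas 2.3.3 and numpy 2.4.6, and scipy 1.17.1 checked the permutation test. Plots used matplotlib 3.10.9.

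The 37 genes and all lists were chosen with earlier results of these data known. Values in every library are given for genes with an unadjusted p under 0.05 for training, the 6 with the highest mean, the secreted synapse-regulating factors, Gfap and Aqp4. Genes of the other lists are named at a p under 0.01, and 5 further genes by their correlation with the mean of the 37. Gjb6, S100b, Mdk, Lgi1 and the examples by sex, library number and Untrained 10 were chosen after their values were seen. Alternatives were other pseudocounts (0.01 and 1), a filter at 1 FPKM or none, quantile normalization, median centring, sex or number range as covariate, robust variance, array weights, each library left out, and each number range alone. Leaving out Untrained 10 and Trained 14 together, each library for the sex, interaction and number range terms, and Untrained 10 for the other astrocyte lists, was chosen after seeing the data.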

Additional observations from a re-analysis of the deposited data

Results flagged for a closer look

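In groups of 5 or 6 libraries, the extreme value was compared with its nearest neighbour for every gene in each group, 74 groups in all, and 8 stood apart at the 95% level of Dixon's test. A test at this level flags about 1 in 20 independent groups, or 3.7 of 74. The groups here are not independent, because the 37 genes share the same 11 libraries, and 3.7 is not a share over all genes. Untrained 10 was the highest or the lowest library for 41.6% of all genes. The 8 can therefore not be read as particular to the astrocyte genes. Of the 8, 6 were in Untrained 10: Aqp4 at 20.18 FPKM, Atp1b2 at 198 FPKM, Sparcl1 at 817 FPKM and Glul at 504 FPKM stood above the other untrained libraries, and Fgfr3 at 21.05 FPKM and Mt3 at 170 FPKM stood below them. The others were Mt3 at 274 FPKM in Trained 14, below the other trained libraries, and Sox9 at 11.6 FPKM in Trained 12, above them.

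The interaction term of training and sex in limma had an unadjusted p under 0.05, as it did for 4.1% of all genes, for Gfap (-0.82 on the log2 scale), Fabp7 (-0.60), Kcnj10 (-0.47) and Atp1b2 (-0.38). In each the difference between trained and untrained mice was more negative in males. None passed adjustment over all genes (adjusted p 0.959). Without Untrained 10, Gfap kept its unadjusted call (-0.71), and Fabp7 (-0.35), Kcnj10 (-0.11) and Atp1b2 (-0.13) lost theirs. Only 2 untrained males were measured, and males and females fall almost wholly into different library number ranges, so sex and number range cannot be told apart here.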

How the results depend on the processing

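Over 24 alternatives for each of the 37 genes (888 values), 846 kept their side of the threshold, 21 lost and 19 gained an unadjusted p under 0.05, and 2 turned past it in the other direction: Gfap at 0.24 and Id3 at -0.22 in libraries 1 to 6 alone. The cause was not tested. The smallest adjusted p among them was 0.146 (Cst3). The count of genes lower in trained mice fell from 2 to 1 with a pseudocount of 1, the 1 FPKM filter, median centring or sex as a covariate, each time through the loss of Kcnj10, and ranged from 0 to 2 with each library left out. The count of higher genes rose from 1 to 2 with sex as a covariate or array weights and to 3 with Untrained 10 and Trained 14 left out, and ranged from 1 to 4 with each library left out, 4 being without Trained 14. The median difference was -0.073 in libraries 10 to 17 alone and -0.040 to 0.011 with each library left out. With array weights 9 genes differed between the sexes and 14 between number ranges. With each library left out (for the interaction, 2 of the 11 fits leave 1 untrained male, assumed to vary like the other groups), these counts ranged from 0 to 2 and from 1 to 12 (12 without Untrained 10), and that of the interaction from 1 to 16. Of all genes, 0.107% (without Trained 1) to 7.73% (without Untrained 17) passed for sex in these fits. For number range 3.17% (without Untrained 6) to 15.6% (without Untrained 10) passed. No share of all genes was set beside the counts with array weights, so those cannot be read as particular to the astrocyte genes. The highest interaction count came from a fit with 1 untrained male and cannot be read so either. The 0 calls at an adjusted p of 0.05 and at the study's thresholds held in every training alternative run. No paired analysis was possible because the groups share no library numbers. Groups of 6 and 5 and the overlap of sex with library number limit what these data can show.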
